A study of Callithrix jacchus with 3 samples.

Results

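Small RNAs of 26 to 32 nt that begin with cytidine (C) were examined in 2 small RNA datasets deposited for adult testis of Callithrix jacchus, the common marmoset. Members were all distinct sequences of this length with C as first base, 722443 of 7460972 distinct sequences of 26 to 32 nt in both datasets together. The total small RNA dataset, gel-purified from testis RNA of a wild-type animal aged 41 months, held 201750 of them among 2188395 sequences. The MARWI-IP dataset, small RNA recovered from testis lysate by immunoprecipitation of the marmoset PIWI protein MARWI, held 595787 among 6244480 sequences. Its label gives 2 replicates and wild-type animals aged 41 and 51 months, deposited as 1 column of reads. In what follows, "with MARWI" refers to this dataset. Each dataset is therefore 1 column of reads without replicate error, called a library below, and no test between them was made. The MARWI-IP label includes an animal aged 51 months and the total small RNA label does not. Differences between the datasets therefore cannot be told apart from differences of animal and age. Shares are of the reads of 26 to 32 nt, which numbered 12001432 in total small RNA and 106621469 with MARWI. Intervals are exact (Clopper-Pearson) 95% intervals, or come from the exact binomial of 2 read counts for a ratio of shares, and cover counting error alone, since reads carry no molecular identifiers. The length window does not by itself make a sequence a piRNA.

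PIWI proteins bind piRNAs, small RNAs of the germ line that silence transposons and, in the adult mammalian testis, come largely from long precursor transcripts. Most piRNAs begin with uridine (U), which the 5′ pocket of PIWI proteins prefers. Slicing of a target by a PIWI protein gives a partner piRNA whose position 10 pairs with position 1 of the guide, so partners of U-first piRNAs carry A at position 10. A first base other than U combined with A at position 10 is thus the usual description of the secondary partner in this ping-pong cycle. The 3′ end of a piRNA is set by trimming.

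The sequences that carried most reads are shown first. Names join the first 7 letters and the length, U is written as T as in the deposited tables, and capitals mark positions 1 and 10. These 14 were the 10 most abundant C-first sequences of either library.
CACTAAC-32: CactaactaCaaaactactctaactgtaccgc
CACTAAC-31: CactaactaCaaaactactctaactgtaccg
CACTAAC-30: CactaactaCaaaactactctaactgtacc
CTGTAAC-30: CtgtaactgAcaaactcttatgaccagtga
CTGTAAC-29: CtgtaactgAcaaactcttatgaccagtg
CACCAAG-30: CaccaagacAatgaatcactcagcaaggct
CACCAAG-29: CaccaagacAatgaatcactcagcaaggc
CCATGTC-32: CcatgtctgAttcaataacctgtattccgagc
CATGTCT-31: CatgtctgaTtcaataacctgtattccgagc
CACTGGT-30: CactggttcCtttcagtttactctctggtc
CCAGAAT-29: CcagaattgGctgtttcagggctactgac
CTCCAAC-30: CtccaactgCtgtacgacacagagcccggc
CTTCTTC-29: CttcttcttAtaaggacgacagtcttgtt
CGCGACC-31: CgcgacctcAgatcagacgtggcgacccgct
Several are 3′ length forms of each other, so the 14 sequences stand for 10 different 5′ ends. Of the 14, 7 have A at position 10. CGCGACC-31 has the letters known for the 5′ end of mammalian 28S ribosomal RNA, recognised from general knowledge and not matched to a reference here. No identity was assigned to the other 13.

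The first question was how common a first C was, and whether it was as common in the RNA recovered with MARWI as in testis small RNA. C-first sequences were a small class in both libraries and a smaller one with MARWI. They held 569300 reads of total small RNA, 4.74% (4.73% to 4.76%), and 4031131 reads of MARWI-IP, 3.78% (3.777% to 3.784%). The ratio of the shares was 0.797 (0.795 to 0.799), close to the 0.793 of A-first reads, above the 0.379 of G-first reads and below the 1.07 of U-first reads. Counted as distinct sequences the order of the libraries turned, with C first in 9.22% of total and 9.54% of MARWI-IP sequences, a ratio of 1.03. The libraries differ in depth, and a count of distinct sequences depends on depth.

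C-first sequences were rarer among abundant sequences than among sparse ones. The mean was 2.82 reads per C-first sequence against 6.10 per U-first sequence in total small RNA, and 6.77 against 21.1 in MARWI-IP. In total small RNA the means were 2.88 for A-first sequences, near C-first, and 5.96 for G-first sequences, near U-first. With MARWI the mean was 6.38 for G-first sequences and lower still for A-first sequences, so both lay below C-first sequences. A low mean beside U-first sequences was therefore not particular to C. In total small RNA, sequences under 1 rpm (reads per 1000000 reads of 26 to 32 nt) began with C in 9.47% of cases, those of 10 to under 100 rpm in 2.81% and those of 100 or more in 4.84%. In MARWI-IP the same classes gave 9.63%, 2.22% and 3.32%. Single-read sequences were 78.8% of C-first sequences and 27.9% of C-first reads in total small RNA, and 69.7% and 10.3% with MARWI. Their part of the reads was 11.7% and 3.06% for U-first, 28.3% and 12.2% for A-first, and 13.1% and 11.0% for G-first sequences.

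At the other extreme, a few sequences held much of the C-first reads. The 10 most abundant held 8.83% of C-first reads in total small RNA and 16.5% with MARWI, against 3.71% and 8.97% for the 10 most abundant U-first sequences. The same shares were 15.5% and 21.7% for A-first and 49.0% and 12.0% for G-first reads, so C-first reads were less concentrated than A-first reads in both libraries and than G-first reads in total small RNA. Sequences of 100 or more rpm numbered 31 in total small RNA and held 15.5% of C-first reads there. In MARWI-IP they numbered 25 and held 22.3%. The most abundant C-first sequence ranked 54 among all sequences of total small RNA and 27 among those of MARWI-IP.

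One 5′ end led both libraries. Ends were defined as identical first 20 nt, and C-first reads had 149402 ends in total small RNA and 394330 with MARWI. The CACTAAC end held 16596 total reads, 2.92% of C-first reads, and 377314 with MARWI, 9.36%, and its ratio of shares was 2.56 (2.52 to 2.60). Its commonest form was CACTAAC-32 in total small RNA, with 7252 total and 132015 MARWI-IP reads, and CACTAAC-31 in MARWI-IP, with 5534 total and 158079 MARWI-IP reads. Both forms are longer than the 29 and 30 nt at which reads of either library peaked, and they carry C and not A at position 10.

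The next C-first ends split between those near or above their total share in MARWI-IP and those far below it. The CTGTAAC end had 12600 total reads and 108598 with MARWI, which gave a ratio of 0.970 (0.952 to 0.988). The CACCAAG end had 3399 and 116491 reads, a ratio of 3.86 (3.73 to 3.99). The CCATGTC end had 7076 and 72502 reads, a ratio of 1.15 (1.13 to 1.18). Close to these lay the CACTGGT end, with 5089 and 56551 reads and a ratio of 1.25, and the CCAGAAT end, with 3952 and 44430 reads and a ratio of 1.27. Both were dominated by 1 form, CACTGGT-30 at 90.5% and CCAGAAT-29 at 83.2% of their MARWI-IP reads.

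Of the 10 leading ends, 4 had a lower share with MARWI, the CTGTAAC end by little and 3 others by far more. The CGCGACC end, with the letters of the 28S rRNA start, had 13716 total reads, 2.41% of C-first reads, and 163 with MARWI, so that its ratio was 0.00134 (0.00114 to 0.00156). The CTTCTTC end had 6088 and 2872 reads, a ratio of 0.0531 (0.0508 to 0.0555), nearly all as CTTCTTC-29 in total small RNA (94.0%). The CTCCAAC end had 6711 and 13523 reads, a ratio of 0.227 (0.220 to 0.234).

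Ratios depended on the 3′ end as well as the 5′ end. For the CTCCAAC end, CTCCAAC-30 had 3670 total and 181 MARWI-IP reads, a ratio of 0.00555, whereas its form 1 nt shorter had 556 and 5125 reads, a ratio of 1.04. A second version of this end differs from it near the 3′ end.
CTCCAAC-30, first version: CtccaactgCtgtacgacacagagcccggc
CTCCAAC-29, first version: CtccaactgCtgtacgacacagagcccgg
CTCCAAC-30, second version: CtccaactgCtgtacgacacagagccaggc
CTCCAAC-29, second version: CtccaactgCtgtacgacacagagccagg
The second version had 1332 total and 351 MARWI-IP reads at 30 nt, a ratio of 0.0297, and 497 and 2505 reads at 29 nt, a ratio of 0.567. In both versions the 30-nt form was the one low in MARWI-IP. The CGCGACC end likewise had lower ratios in its longer forms, from a ratio of 0.0750 at 27 nt, with 69 total and 46 MARWI-IP reads, to 0.000167 at 31 nt, with 7429 and 11 reads. Its 32-nt form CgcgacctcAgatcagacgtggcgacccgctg had 2954 and 5 reads, a ratio of 0.000191.

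Lengths of C-first reads were described next. C-first reads peaked at 30 nt in both libraries, as A-first reads did. A larger share of C-first than of U-first reads was of 31 and 32 nt. Of C-first total reads 51.5% were of 29 and 30 nt and 22.1% of 31 and 32 nt, against 58.1% and 17.0% of reads with another first base. In MARWI-IP the shares were 57.6% and 23.3%, against 68.5% and 11.5%. Reads with another first base are mostly U-first. A-first total reads had 52.5% at 29 and 30 nt, near C-first reads, and 17.8% at 31 and 32 nt, and G-first total reads had 31.3% and 53.4% and peaked at 31 nt. With MARWI, A-first reads gave 65.2% and 13.7% and G-first reads 60.1% and 13.0%. With MARWI the share of 31 and 32 nt was therefore higher in C-first reads than in reads of each other first base. In total small RNA it was lower than in G-first reads, of which 10 sequences held 49.0%. Over distinct total small RNA sequences this share was 18.5% for C-first, 16.2% for A-first, 14.1% for G-first and 14.5% for U-first sequences. Over distinct sequences, 47.6% of C-first and 52.1% of other MARWI-IP sequences were of 29 and 30 nt.

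A part of the longer reads in MARWI-IP belonged to the leading end. C-first reads were 13.9% of all MARWI-IP reads of 32 nt and 2.91% of those of 29 nt, and in total small RNA they were 8.33% and 4.07%. The CACTAAC end alone held 49.0% of the C-first MARWI-IP reads of 32 nt and 23.5% of those of 31 nt. With the 10 leading C-first ends left out, a step chosen after their values were seen, C-first reads were 6.09% of MARWI-IP reads of 32 nt and 2.42% of those of 29 nt. Among total small RNA reads of these lengths their shares were then 5.71% and 3.53%. The rise towards 32 nt thus remained in both libraries but was smaller. Reads of 31 and 32 nt were then 18.3% of C-first MARWI-IP reads and 19.6% of C-first total reads.

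Relative to all reads of a length, C-first reads had a lower share in MARWI-IP from 26 to 30 nt and a higher one at 31 and 32 nt. The ratio within a length lay between 0.664, at 28 nt, and 0.803, at 26 nt, for the 5 shorter lengths. It was 1.16 (1.15 to 1.17) at 31 nt and 1.66 (1.65 to 1.68) at 32 nt, the lengths of the most abundant CACTAAC forms. Without the 10 leading ends the ratio was 1.01 at 31 nt and 1.07 at 32 nt, and it stayed between 0.649 and 0.776 at the shorter lengths.

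The base after the first C was G in few reads. In MARWI-IP position 2 was A in 47.8%, U in 30.5%, C in 19.8% and G in 1.96% of C-first reads. In total small RNA the shares were 38.5%, 33.5%, 20.9% and 7.04%. CpG dinucleotides are scarce in mammalian genomes, and inside the same reads, from position 2 on, a C was followed by G in 5.17% of cases with MARWI and 8.89% in total small RNA.

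Split by this second base, the C-first class did not behave as 1 group between libraries. Reads beginning CA had a ratio of 0.988 (0.984 to 0.992), those beginning CC 0.754 (0.749 to 0.758), those beginning CU 0.725 (0.722 to 0.729) and those beginning CG 0.222 (0.219 to 0.224). CG-first reads numbered 40104 in total small RNA and 78956 with MARWI, and the CGCGACC end held 13716 of the former. Without the 10 leading ends CG-first reads were 5.36% of C-first total reads and 2.46% of C-first MARWI-IP reads. The same step took CA-first reads of MARWI-IP from 47.8% to 41.9%, against 39.1% in total small RNA.

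Position 10 was then examined, since the partner of a U-first guide carries A there. A at position 10 does not by itself make a sequence such a partner. A at position 10 was more frequent in C-first than in U-first reads of both libraries. It was found in 45.0% (44.9% to 45.1%) of C-first total reads and 37.6% (37.58% to 37.67%) of C-first MARWI-IP reads, against 29.96% and 31.5% of U-first reads. A-first reads gave 42.6% and 38.8%, so C-first reads were near them, and G-first reads gave 18.9% and 38.5%. In distinct sequences the shares were 39.5% of C-first and 29.1% of U-first total sequences, and 34.1% and 29.9% in MARWI-IP. A-first sequences gave 45.9% and 38.1%, above C-first sequences, and G-first sequences 39.2% and 34.2%, close to them. A larger share of A at position 10 than in U-first sequences was thus common to the 3 other first bases when distinct sequences were counted.

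In total small RNA position 10 had the highest share of A of all positions from 2 to 26 of C-first reads. The mean over the other positions from 5 to 15 was 28.2%, with a range of 21.8% to 36.7% and position 5 the highest. Position 10 also led in A-first total reads, at 42.6%, but 1 position stood above it in U-first and 5 in G-first reads. In C-first reads of MARWI-IP position 10 did not lead. Positions 2, 5, 6 and 14 were above it, at 47.8%, 43.6%, 38.9% and 40.1%, and the mean of the other positions from 5 to 15 was 32.8%. With MARWI, 4 positions were also above it in A-first reads, and 1 each in U-first and G-first reads.

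The base shares with MARWI changed when the leading ends were left out. With the 10 leading ends left out, A at position 10 stood at 43.3% of total reads and 37.9% of reads with MARWI, the means of the other positions from 5 to 15 were 26.4% and 27.7%, and position 2 alone stood above position 10 in MARWI-IP. Position 14 then held A in 27.9% of MARWI-IP reads and position 6 in 28.3%. C at position 10 went from 22.6% to 14.4% of C-first MARWI-IP reads, and CACTAAC forms carry C there. The excess of A at position 10 over neighbouring positions was therefore present without the leading ends, and the high A at positions 6 and 14 was not.

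A at position 5, the position richest in A in U-first reads of both libraries, was found in 36.7% of C-first total reads and 43.6% of C-first MARWI-IP reads. Reads with another first base gave 37.3% and 44.1%, nearly the same. Over distinct sequences the shares were 30.7% and 31.98% for C-first and 34.9% and 36.5% for other sequences. Without the 10 leading ends A at position 5 was 30.9% and 34.2% of C-first reads, with no such step taken for other reads. U at position 8 was 40.4% and 44.4% in C-first reads and 32.1% and 34.7% without these ends.

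A at position 10 varied with abundance, length and presence in the libraries. Of C-first sequences under 1 rpm it was found in 39.4% in total small RNA and 34.1% with MARWI. Of those of 1 to under 10 rpm it was found in 43.3% and 39.9%. The class of 10 to under 100 rpm gave 43.7% and 38.8%, so the share did not rise at each step with MARWI. The 31 and 25 sequences of 100 or more gave 64.5% and 48.0%, but several of them are length forms of the same end. Sequences with another first base gave 31.6% and 31.3% in the lowest of these classes and 29.2% and 35.9% in the highest. By length, the share over distinct C-first sequences was 35.4% at 26 nt and 45.9% at 32 nt in total small RNA. With MARWI it was 30.2% at 26 nt, 36.4% at 30 nt and 32.8% at 32 nt.

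C-first sequences found in total small RNA alone had A at position 10 in 40.6% of cases, those found in both libraries in 37.6% and those found in MARWI-IP alone in 33.6%. Presence in a library depends on its depth, and this split was not made for other first bases. The 75094 shared sequences were 37.2% of the C-first sequences of total small RNA and 12.6% of those of MARWI-IP. They held 72.9% of C-first total reads and 75.9% of C-first MARWI-IP reads. For U-first reads these shares were 89.96% and 92.2%, for A-first reads 72.6% and 73.1%, and for G-first reads 86.7% and 72.8%. C-first reads were thus close to A-first reads in both libraries, and to G-first reads with MARWI. Each of these had a larger share of its reads than U-first reads in sequences seen in 1 library alone.

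The last base was also recorded. It was C in 35.3% of C-first total reads and 34.4% of C-first MARWI-IP reads, against 32.7% and 29.1% of U-first reads, 38.96% and 34.1% of A-first reads and 50.6% and 28.8% of G-first reads. Over distinct sequences the shares were 32.9% and 27.3% for C-first, 30.2% and 25.95% for U-first, 30.8% and 25.1% for A-first, and 30.9% and 25.8% for G-first sequences.

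Whether C-first 5′ ends lay beside other 5′ ends was asked from the sequences alone. A neighbour was an end of the same library whose sequence overlapped with a shift of 1 nt over 20 nt. A larger share of C-first than of U-first reads lay 1 nt from an end with more reads than their own, 29.8% in total small RNA and 37.5% with MARWI. For U-first reads the shares were 8.40% and 8.35%, for A-first reads 21.1% and 31.1%, and for G-first reads 12.1% and 35.2%. The larger end lay 1 nt upstream and began with U for 11.7% of C-first total reads and 15.6% of C-first MARWI-IP reads. It lay 1 nt downstream and began with U for 13.5% and 18.3%. An end with few reads is more easily exceeded, so these shares also depend on the reads per end of each first base.

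Larger ends with a different first base in the same register were also sought. An end that shared bases 2 to 20 but began with another base and held more reads was found for 0.483% of C-first total reads and 0.292% of C-first MARWI-IP reads. Shifted ends were sought on 2 sides and with any first base, so the 2 searches are unlike and their shares are not compared.

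The CTGTAAC end is an example of a C-first end beside U-first ends. Starting 1, 2 and 3 nt downstream, the most abundant MARWI-IP sequences of each end were as follows.
CTGTAAC-30, no shift: CtgtaactgAcaaactcttatgaccagtga
TGTAACT-29, 1 nt downstream: TgtaactgaCaaactcttatgaccagtga
GTAACTG-30, 2 nt downstream: GtaactgacAaactcttatgaccagtgaag
TAACTGA-30, 3 nt downstream: TaactgacaAactcttatgaccagtgaagg
Both U-first ends outnumbered the C-first end in MARWI-IP, with 120967 reads at 1 nt and 420867 at 3 nt against 108598, while the G-first end had 3638. The C-first end held 12600 reads of total small RNA, the U-first ends 6830 and 24224 and the G-first end 215. The C-first end was therefore the second of the 4 in total small RNA and the third in MARWI-IP. Its ratio of 0.970 lay below those of the U-first ends, at 1.99 and 1.96, and of the G-first end, at 1.90.

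The CCATGTC end belonged to a ladder of 5′ ends with 1 common 3′ end.
CCATGTC-32: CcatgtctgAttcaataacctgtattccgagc
CATGTCT-31: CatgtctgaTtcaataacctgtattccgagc
ATGTCTG-30: AtgtctgatTcaataacctgtattccgagc
TGTCTGA-29: TgtctgattCaataacctgtattccgagc
GTCTGAT-28: GtctgattcAataacctgtattccgagc
In MARWI-IP the 5 sequences had 28354, 28444, 17016, 3784 and 417 reads from the longest to the shortest, and in total small RNA 3157, 1625, 1129, 1769 and 1184. With MARWI they made up 39.1% of the reads of the CCATGTC end and 91.6%, 91.0%, 83.2% and 86.9% of those of the other ends. The C-first and A-first ends at the top of the ladder had ratios of 1.15, 1.96 and 1.68, whereas the U-first and G-first ends below them had 0.245 and 0.0350. In this ladder the U-first end thus had a lower ratio than the C-first ends upstream of it.

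Of the 10 leading C-first ends, 3 had a larger end within 3 nt. Of these, the CTGTAAC end and the CATGTCT end are described above. The third, the CTCCAAC end, lay 1 nt upstream of a U-first end with 36055 total reads, 5.37 times its own, and 51936 MARWI-IP reads, 3.84 times its own. Another U-first end, 1 nt upstream of it, had 1378 total and 21006 MARWI-IP reads, 0.205 and 1.55 times its own. The CTCCAAC end was thus flanked by larger U-first ends on both sides with MARWI, and on the downstream side in total small RNA. For the other 7 leading ends no larger end was found within 3 nt on either side. The CACTAAC end had 29876 MARWI-IP reads starting 1 nt upstream, also with C, which is 0.0792 times its own reads, and 2604 starting 1 nt downstream. The CACTGGT end had 179 and 312 such reads beside its 56551, and the CACCAAG end 4305 and 2259 beside its 116491.

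Complementary 5′ ends were sought among the 2000 most abundant ends of each library, of which 60 in total small RNA and 40 with MARWI began with C. Ends complementary over their first 10 nt formed 22 pairs in total small RNA, 5 of them with a C-first end, and 15 pairs in MARWI-IP, 2 of them with a C-first end. All pairs numbered 26 and 58 at an overlap of 8 nt, 9 and 15 at 9 nt, and 2 and 2 at 11 nt. Unrelated ends match more easily over a shorter overlap, and the pairs expected among unrelated ends were not computed. The counts at different overlaps therefore do not show whether 10 nt was in excess. Pairs with a C-first end numbered 4 and 3 at an overlap of 8 nt, 1 and 1 at 9 nt, and 1 and 0 at 11 nt. In all 7 pairs at 10 nt with a C-first end the partner began with U, so that position 10 of the C-first end was A. The partner began with U in the C-first pairs at 8, 9 and 11 nt as well. These counts are small, and the pairs were not placed on a genome.
The pairs of MARWI-IP were these, with the first 20 nt shown.
CAAGTGA end: CaagtgaatAgtagttttga
TATTCAC end, its partner: TattcacttGgtgacattag
CCAATGT end: CcaatgttcAcagaattctt
TGAACAT end, its partner: TgaacattgGactacagctg
Both partners of a pair had similar abundance in MARWI-IP, 9069 and 8896 reads for the first pair and 9573 and 9147 for the second. In total small RNA, 3 C-first ends were paired. The CTCACAC end CtcacacaaAgcctgtttgg, with 903 reads, was complementary to 3 U-first ends, of which TttgtgtgaGcttcatggct had 1895 and TttgtgtgaGcaacaaggct 1853 reads. The CAGATTC end CagattcccAaaggctaccc, with 2534 reads, had the partner TgggaatctGgtgtgtggat with 2117 reads. The CATCTGT end CatctgtgaAatggtggtaa had 3758 reads and its partner TtcacagatGaggaaactga 799.

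Sequences were last compared 1 by 1 between the libraries. Of 290 C-first sequences with a mean of 10 or more rpm over both libraries, 28 were 4-fold or more higher in MARWI-IP and 78 were 4-fold or more lower. Over all 11502 sequences of 26 to 32 nt at that level, 9.57% were higher and 15.2% lower by this measure, so the share of C-first sequences that were higher, 9.66%, was near the background, and the share that were lower, 26.9%, was above it. The same shares were 28.4% lower for A-first, 33.8% for G-first and 14.1% for U-first sequences. The median ratio was 1.01 for C-first sequences and 1.38 for all, and the quartiles for C-first sequences were 0.197 and 2.21. At a lower level, a mean of 3 rpm, 109 of 1085 C-first sequences were 4-fold or more higher and 269 lower, against 9.19% and 16.0% of all sequences. At 10 rpm, 82 were 2-fold or more higher and 97 lower, against 33.5% and 22.8% of all sequences, so by this measure the C-first share that was higher, 28.3%, was below the background. Sequences that share a 5′ end are not independent, and with 1 column of reads a side no test was made.

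Among these 290, the 78 lower sequences came from 53 ends and had A at position 10 in 56.4% of cases, the 184 between from 118 ends in 38.0%, and the 28 higher from 25 ends in 46.4%. G at position 2 was found in 10.3% of the lower sequences, 0.543% of those between and 0 of the 28 higher ones. Lengths of 29 and 30 nt made up 50.0% of the lower, 60.3% of the middle and 78.6% of the higher sequences. The lower sequences reached the required mean mainly through total small RNA reads and the higher ones through MARWI-IP reads. Forms of 1 end share positions 2 and 10 and are not independent. The same split was not made for other first bases, so these shares describe the 290 sequences alone.

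The sequences at the high end of the ratios included 2 that lie whole within an abundant U-first sequence. The 5 with the highest ratios are listed with the most abundant RNA that holds 2 of them whole.
CATTTGT-30: CatttgttcAtacttactgctaattgaata
CACATGG-26: CacatggtcTagcggttaggattcct
CTCACAG-29: CtcacagtaTtcctctggatactcttgtg
CCACATG-27: CcacatggtCtagcggttaggattcct
CTTGGTA-30: CttggtaaaAtaaccagtttcttctattgt
TCCCACA-29, which holds CACATGG-26 and CCACATG-27: TcccacatgGtctagcggttaggattcct
CATTTGT-30 had 1 total and 2697 MARWI-IP reads, a ratio of 304 with a wide interval of 54.4 to 11995. CTCACAG-29 had 62 and 11852 reads, a ratio of 21.5 (16.8 to 28.1), and CTTGGTA-30 had 38 and 2862, a ratio of 8.48 (6.16 to 12.0). CACATGG-26 had 13 and 2752 reads, a ratio of 23.8 (13.9 to 44.8), and CCACATG-27 had 27 and 4734, a ratio of 19.7 (13.5 to 29.98). CACATGG-26 and CCACATG-27 start 3 and 2 nt inside TCCCACA-29 and share its 3′ end. TCCCACA-29, whose letters are those known for the 5′ part of tRNA-Glu-TTC, again not matched to a reference here, was the most abundant MARWI-IP sequence, with 2177351 reads there and 45392 in total small RNA. Whether the shorter sequences derive from it was not tested.

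At the low end, 3 of the 5 lowest ratios among sequences read in both libraries were forms of the CGCGACC end, of 30, 31 and 32 nt. The other 2 were CATCTGT-29, CatctgtgtAtctctagagctgcaccatc, which has another end than the paired CATCTGT end above, with 278 total reads and 1 MARWI-IP read, which gave a ratio of 0.000405 (1.02e-05 to 0.00227), and CAACAGA-32, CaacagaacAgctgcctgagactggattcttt, with 267 and 1, a ratio of 0.000422 (1.06e-05 to 0.00237). All 5 have A at position 10, but the 3 CGCGACC forms share it because they are 1 end. A further 3 C-first sequences of 246 to 273 total reads had 0 of 106621469 MARWI-IP reads. Against a floor of 3 MARWI-IP reads for each, their shares were at least 728-fold, 782-fold and 808-fold lower. No control immunoprecipitation was analysed here, so reads bound by MARWI cannot be told apart from background in MARWI-IP.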

How the data were processed

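RNA of the total library was extracted with the miRNeasy kit and size-selected on a gel, per the labels' protocols. RNA of the MARWI immunoprecipitate was extracted with the same kit, and libraries were made with NEBNext small RNA reagents. Bowtie, TopHat and Cufflinks appear in the submitters' processing notes without roles, and trimming, filters and mapping were not given in the sources used here. The small RNA tables as deposited hold raw read counts per distinct sequence, of 20 to 51 nt in total small RNA (14138166 reads) and of 24 to 33 nt in MARWI-IP (110209593 reads), so the MARWI-IP table is a length class whose sum is not the library's depth. The RNA-seq table was not used here.

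From these counts, shares, intervals, base shares by position, 5′ ends (first 20 nt), 1-nt neighbours and complementary ends were computed with Python 3.11.15, numpy 2.4.6, pandas 2.3.3 and scipy 1.17.1. The neighbour counts and ratio intervals were tested on simulated data. A read in total small RNA was worth 0.0833 rpm (reads per 1000000 reads of 26 to 32 nt) and one in MARWI-IP 0.00938. No genome was used, so no sequence was placed or annotated.

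Sequences named were the 10 most abundant C-first sequences of each library and, among those with a mean of 10 or more rpm, the 5 highest and 5 lowest ratios of shares. Leading ends, length forms, neighbours and pairs were named after their values were seen. The members and lists were chosen with earlier results of these data known. Alternatives were windows of 24 to 33 and 28 to 31 nt, each distinct sequence counted once, and leaving out single-read sequences, the 10 leading C-first sequences or (added later) the 10 leading ends, a denominator of 24 to 33 nt, a mean of 3 rpm and a 2-fold difference.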

Additional observations from a re-analysis of the deposited data

How the results depend on the processing

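Values are given in the order windows of 24 to 33 nt and of 28 to 31 nt, distinct sequences, sequences read once left out, the 10 most abundant C-first sequences of each library left out, and the 10 leading C-first ends left out, the last chosen after seeing the data. The share of C-first reads in total small RNA was 4.91%, 4.46%, 9.22%, 3.95%, 4.34% and 4.13%, and 4.45% of reads of 24 to 33 nt. In MARWI-IP it was 3.87%, 3.52%, 9.54%, 3.53%, 3.18% and 3.03%, and 3.66% of reads of 24 to 33 nt. The ratio of these shares was 0.788, 0.789, 1.03, 0.894, 0.731 and 0.734, and 0.822 with that denominator, so it turned above 1 when distinct sequences were counted, and the cause was not tested. Reads of 29 and 30 nt were 46.6%, 64.7%, 43.3%, 55.5%, 51.3% and 50.9% of C-first total reads and 54.5%, 68.6%, 47.6%, 59.0%, 58.7% and 59.6% of C-first MARWI-IP reads. The 2 other windows change this share by construction. A at position 10 was 44.9%, 45.4%, 39.5%, 47.4%, 44.2% and 43.3% in total small RNA and 37.3%, 39.2%, 34.1%, 38.1%, 38.9% and 37.9% in MARWI-IP, and total small RNA stayed above MARWI-IP in each of these settings. With a mean of 3 rpm, 109 C-first sequences were 4-fold or more higher and 269 lower, of more sequences compared, and at 2-fold 82 were higher and 97 lower. Of 23 named sequences, 1 changed direction when all reads of its 5′ end were taken, CtgtaactgAcaaactcttatgaccagtga, whose log2 ratio went from 0.25 to -0.044. No paired analysis was possible because each group is 1 deposited column. Depth limits ratios of sequences with few total reads, and no value here has a replicate error.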
